A study of Homo sapiens with 6 samples.

Results

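The amino acid response and the unfolded protein response were followed through 43 genes. They were chosen by name as known members of these stress pathways, when earlier results of these data were known. Their rows were taken from the deposited mRNA tables of HCT116 cells by gene symbol, and they are 43 of the 19871 symbols listed there. Of these genes, 40 had a mean of at least 50 counts over the 3 groups and were compared between groups, and 3 stayed below that minimum. SDF2L1 lay lowest above it, with a mean of 388, and NUPR1 highest below it, with 29.3. HCT116 is an established human colorectal cancer cell line. Total RNA of these cells was made into 6 strand-specific libraries, 2 for each of 3 groups. The NC group was the negative control, the GAS5 group was made to overexpress the long non-coding RNA GAS5, and the siYAP group received siRNA against YAP, the transcriptional co-activator encoded by YAP1. The labels name a GAS5 plasmid and a YAP-specific siRNA as the transfected material, give no time after transfection, and do not say whether NC received a control plasmid, a control siRNA or both, so the kind of nucleic acid cannot be told apart from the treatment. All groups were 1 cell line, given as grown in McCoy's 5a medium with serum. The paper of the study names a different medium for its cell lines, RPMI with serum. No label says that the libraries of a group came from separate cultures. The deposited tables give 1 mean per group, so no spread between libraries can be computed, no difference below has a replicate check, and none was tested for significance.

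The amino acid response begins when the kinase GCN2, encoded by EIF2AK4, senses uncharged tRNA and phosphorylates the initiation factor eIF2, which lowers general translation and raises translation of the transcription factor ATF4. ATF4 pairs with C/EBP proteins and induces enzymes that make serine, asparagine and proline, amino acid transporters, and the synthetases that charge tRNA. The unfolded protein response answers misfolded protein in the endoplasmic reticulum (ER) through the sensors PERK (EIF2AK3), IRE1 (ERN1) and ATF6. PERK leads to the same factor, ATF4, whereas IRE1 removes a short segment from XBP1 mRNA, and spliced XBP1 and cleaved ATF6 induce ER chaperones and the machinery that sends misfolded protein to the proteasome. Tumour cells use both programmes to keep making protein when nutrients are short.

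The DNA elements through which these factors are known to act are shown first, because the genes that carry them are set side by side below. RefSeq promoters (GRCh38.p14) of 39 of the 43 genes, all but PSPH, SHMT2, PYCR1 and NUPR1, were searched on both strands, each from 250 bases before the start to 50 after it. The composite C/EBP-ATF element, searched as TGATGCAA, was present in 5 of the 39 genes (12.8%) and in 1.08% of the 27305 genes of the table. Of the 5, 4 belong to the amino acid response arm defined below and 1, HERPUD1, to the ER arm. These are the 5 windows, with the element, or its reverse complement TTGCATCA, in capitals.
CHAC1, chr15:40953251-40953280, plus strand: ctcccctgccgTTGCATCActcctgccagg
CEBPG, chr19:33374060-33374089, plus strand: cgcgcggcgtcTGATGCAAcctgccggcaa
AARS, chr16:70289675-70289704, minus strand: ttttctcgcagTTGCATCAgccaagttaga
MARS, chr12:57488053-57488082, plus strand: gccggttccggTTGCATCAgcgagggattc
HERPUD1, chr16:56931955-56931984, plus strand: gacgcggcgggTTGCATCAgcccgtgccca
A looser search, TGATGNAA, was chosen after the first result was seen and found 9 genes (23.1%, against 4.46% of all genes), adding ASNS, SLC3A2, SLC7A1 and GARS. The ASNS window was chr7:97872458-97872487 on the minus strand.
ASNS: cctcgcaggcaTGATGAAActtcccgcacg

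The ER stress element, CCAAT and CCACG with 9 bases between them, was present in 4 of the 39 genes (10.3%, against 0.0916% of all genes), and all of them were genes of the ER arm. These windows show the element with its spacer in capitals, read on either strand.
XBP1, chr22:28800598-28800626, minus strand: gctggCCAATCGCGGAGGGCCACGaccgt
PDIA6, chr2:10812848-10812876, minus strand: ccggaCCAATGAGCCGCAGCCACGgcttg
CRELD2, chr22:49918549-49918577, plus strand: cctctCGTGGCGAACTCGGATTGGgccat
CALR, chr19:12938379-12938407, plus strand: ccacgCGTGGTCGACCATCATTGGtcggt
The second ER stress element, ATTGG and CCACG with 1 base between them, was present in 2 genes (5.13%, against 0.0696% of all genes). The pair of windows is printed in the same way.
HERPUD1, chr16:56932016-56932044, plus strand: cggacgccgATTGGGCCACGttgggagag
SDF2L1, chr22:21642105-21642133, plus strand: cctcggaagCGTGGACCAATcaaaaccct
The unfolded protein response element TGACGTGG was found only in ALDH18A1 (2.56% of the 39 genes, against 0.927% of all genes), a gene of the amino acid response arm and not of the ER arm. The elements did not share positions in HERPUD1, the only gene with a match to more than 1 of them. A match describes these letters alone and is not evidence that a factor binds there. The genes were chosen as known members of these pathways, so shares above those of all genes are not an independent finding.

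Counts of all transcripts with the same symbol were summed, the treatment mean was scaled to the NC mean, and a gene was called higher or lower at 1.5-fold or more, which is 0.58 on the log2 scale. The values in brackets after a log2 fold change are its 95% exact counting interval, which covers counting error of the summed reads only. Mean counts are printed before scaling. The group means held 25521577 to 27206123 counts in all. YAP1, the target of the siRNA, had mean counts of 3480 in NC, 2679 in GAS5 and 1444 in siYAP, a log2 fold change of −1.18 in siYAP and −0.26 in GAS5. GAS5 is non-coding and was not checked in these mRNA tables. The epithelial markers EPCAM, KRT8, KRT18, CDH1 and CDX2 were expressed, whereas KRT20 and VIL1, markers of differentiated colon cells, were below 50 counts, and the leukocyte gene PTPRC and the fibroblast gene DCN were at 0 in every group. Of the other leukocyte and fibroblast genes 2 passed the minimum, CD68 with 202.5 (NC), 279.5 (GAS5) and 203 (siYAP) counts and COL1A1 with 378.5, 556 and 540, and COL1A1 was called higher in both treated groups, at 0.67 and 0.60. The part of these genes in the values below was not tested. The summed level of the 7 epithelial genes was 2302 FPKM in NC, 2645 in GAS5 and 2992 in siYAP, against 2.2 to 3.34 for the 4 fibroblast genes, 4.28 to 5.93 for the 4 leukocyte genes and 0.165 to 0.225 for the 3 endothelial genes. In the GAS5 group all 8 interferon-stimulated genes examined were called higher, with log2 fold changes of 1.55 to 4.93 and a summed level of 846 FPKM against 101 in NC and 120 in siYAP, and the part of this response in the values below was not tested. In these bulk libraries fewer expressing cells and less mRNA per cell cannot be told apart.

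In cells with GAS5 overexpression, 26 of 27 genes grouped here under the amino acid response stood below NC. Of the 13 genes grouped under the ER response, 7 did. Of the 40 genes compared, 7 were called lower (17.5%), which was 2% among all 11907 symbols compared, and 1 was called higher, where 2.52% of all symbols were. The genes called lower were TRIB3, CHAC1, DDIT4, ASNS, PHGDH, STC2 and DDIT3, and the gene called higher was SDF2L1. No gene reached 2-fold in either direction, which 0.269% of all symbols did downwards and 0.806% upwards. The log2 fold change was below 0 for 33 of the 40 genes (82.5%, against 50.1% of all symbols), with a median of −0.28 and a range of −0.86 to 0.59, beside a median of −0.00088 over all symbols. After the values were seen, the 9 roles were joined into 2 arms, which are the groups named at the start of this paragraph. The amino acid response arm includes genes downstream of ATF4, such as DDIT3, and STC2, which ER stress also induces. Because PERK also leads to ATF4, the 2 arms do not separate the amino acid response from the PERK branch of the unfolded protein response. The amino acid response arm (6 roles, 27 genes compared) had a median of −0.36, with 7 genes called lower and none higher. The ER arm (3 roles, 13 genes) had a median of −0.04, with none called lower and 1 higher, although SEL1L was called lower by FPKM. The amino acid response arm took 1.10% of all counts in NC and 0.848% in GAS5, and the ER arm 0.232% and 0.242%.

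**Figure D1:**
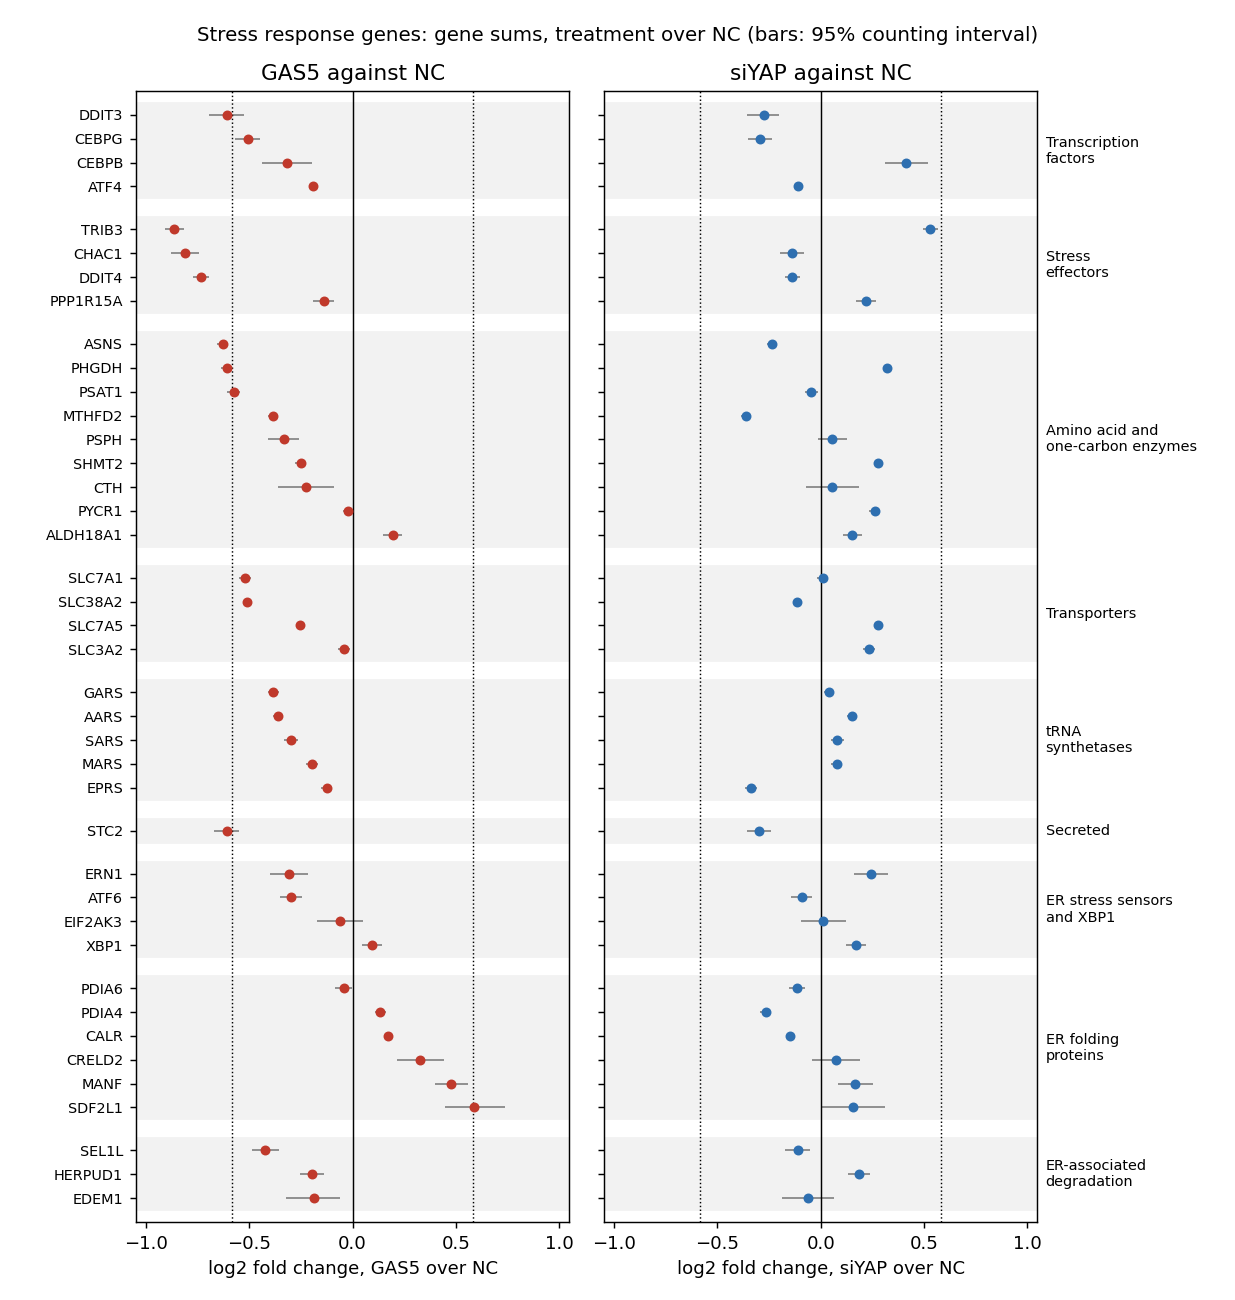
Log2 fold changes of the 40 genes compared, in GAS5 (left) and siYAP (right) over NC, grouped by role; points are the values from the group means, bars their 95% counting intervals, and dotted lines mark 1.5-fold. On the left 33 of 40 points lie below 0 and 7 lie beyond the lower dotted line, and on the right no point crosses either line.

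With YAP knockdown no gene of the set reached 1.5-fold. None of the 40 was called lower and none higher, where 4.33% and 2.85% of all symbols were, and none reached 2-fold, where 0.512% and 0.328% did. The log2 fold change was below 0 for 17 of the 40 genes (42.5%, against 50.6% of all symbols). The median was 0.05, with a range of −0.36 for MTHFD2 to 0.53 for TRIB3, beside −0.0055 over all symbols. The amino acid response arm had a median of 0.06 and took 1.12% of all counts, close to its 1.10% in NC, and the ER arm had a median of 0.01 and took 0.210%. Both comparisons use the same NC mean, and GAS5 and siYAP were not tested against each other.

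**Figure D2:**
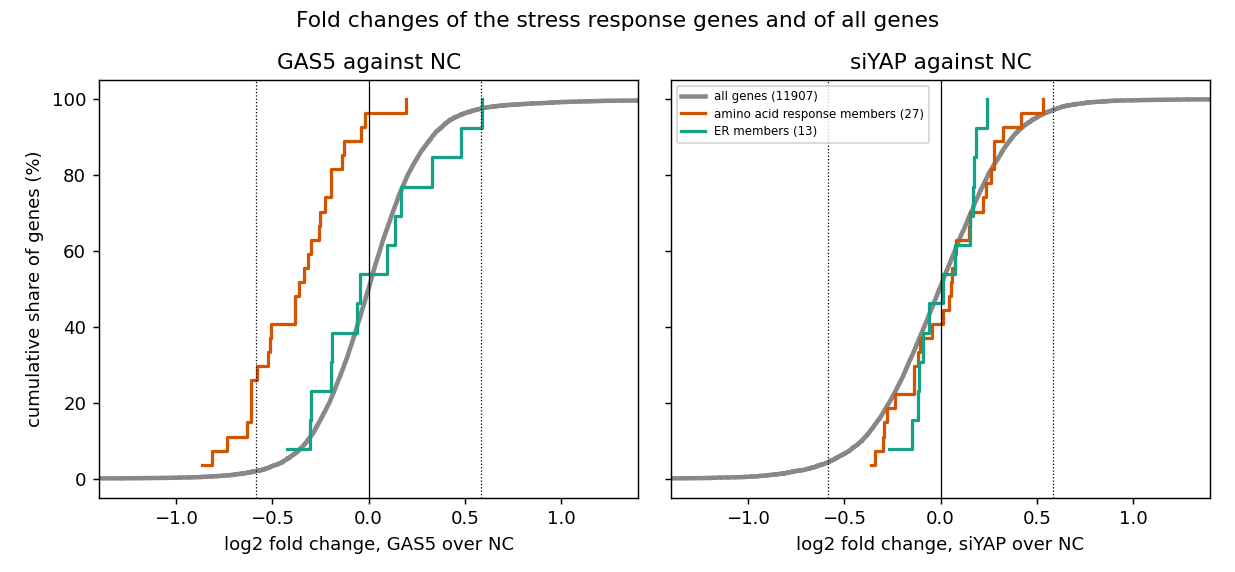
Cumulative share of genes (percent, vertical axis) against the log2 fold change over NC, for all 11907 symbols compared (grey), the 27 amino acid response genes (orange) and the 13 ER genes (green); dotted lines mark 1.5-fold. In GAS5 the orange line lies left of the grey one, with a median of −0.36, and in siYAP the 3 lines run together near 0.

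ATF4, the factor that drives the amino acid response, had mean counts of 23311 in NC, 18779 in GAS5 and 20390.5 in siYAP. Its log2 fold change was −0.19 (−0.21 to −0.17) in GAS5 and −0.11 in siYAP, below the fold that was called. ATF4 is controlled largely at translation, which these data do not measure. DDIT3, which encodes CHOP, a factor downstream of ATF4 that favours cell death, had 1543.5 in NC, 931.5 in GAS5 and 1200.5 in siYAP, and it was called lower in GAS5, with a log2 fold change of −0.61 (−0.69 to −0.53), whose interval spans the limit for a call. In siYAP its value was −0.28. The DDIT3 gene (chr12:57516588-57521737, minus strand) shares 355 of its 1307 exon bases with MARS and 58 with MBD6 on the other strand, and the counting tool's use of strand is not given in the sources used here. CEBPG, a C/EBP partner of ATF4, had 2797.5 counts in NC and 1814 in GAS5 (−0.51), and CEBPB, another partner, 670.5 and 496 (−0.32). In siYAP these partners differed in sign, with −0.29 for CEBPG and 0.42 for CEBPB, and CEBPG was called lower there when only transcripts with an Ensembl identifier were summed. NUPR1, a stress-induced transcriptional co-regulator, stayed below the minimum with 42 (NC), 13.5 (GAS5) and 32.5 (siYAP) counts. All 4 transcription factors compared were therefore below 0 in GAS5, and 1 was called lower, where 50.1% and 2% of all symbols were.

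The feedback and stress effectors held the 3 lowest log2 fold changes of the set in GAS5. TRIB3, a pseudokinase that binds ATF4 and CHOP and limits their activity (chr20:362835-397559, plus strand), had mean counts of 5720 in NC, 2895 in GAS5 and 7792 in siYAP. It fell in GAS5 to 54.9% of its NC level, a log2 fold change of −0.86 (−0.91 to −0.82), the lowest of the 40 genes, and in siYAP it stood at 0.53 (0.50 to 0.57), the highest of the 40 and just under the fold that was called. CHAC1, an enzyme that degrades glutathione (chr15:40952962-40956519, plus strand), had 2631 in NC, 1380 in GAS5 and 2254 in siYAP, and it fell in GAS5 by 0.81 on the log2 scale. DDIT4, an inhibitor of mTOR growth signalling (chr10:72273920-72276036, plus strand), had 7264 in NC, 4027 in GAS5 and 6225 in siYAP, and it fell in GAS5 by 0.73. In siYAP each had a log2 fold change of −0.14, and CHAC1 had −0.32 with its most abundant transcript. The remaining gene of this role, PPP1R15A, encodes GADD34, which directs dephosphorylation of eIF2 and restores translation. Its counts were 3393 in NC, 2839 in GAS5 and 3722 in siYAP, with log2 fold changes of −0.14 and 0.22. Thus 3 of 4 effectors were called lower in GAS5, and none in siYAP, where 2% and 4.33% of all symbols were.

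Among the amino acid and one-carbon enzymes, 2 of the 9 compared were called lower in GAS5 and 8 of 9 were below 0. The shares of all symbols were 2% and 50.1%. ASNS, asparagine synthetase and a classical ATF4 target (chr7:97852118-97872542, minus strand), had mean counts of 16290.5 in NC, 9702 in GAS5 and 13024 in siYAP. It fell in GAS5 to 64.6% of NC, a log2 fold change of −0.63 (−0.66 to −0.60), and had −0.24 in siYAP. PHGDH, the enzyme that commits glucose carbon to serine (chr1:119648411-119744226, plus strand), had 14637 in NC, 8831 in GAS5 and 17260.5 in siYAP. It was called lower in GAS5 at −0.61 (−0.64 to −0.58), an interval that reaches the limit for a call, while its value in siYAP was 0.32. The next enzymes of the serine pathway did not reach the limit. PSAT1 had 9632.5 counts in NC and 5949.5 in GAS5 (−0.58, just short of a call, which it reached with scaling by total counts or by FPKM) and PSPH 1669.5 and 1220 (−0.33). The mitochondrial folate enzymes SHMT2 and MTHFD2 had −0.25 and −0.38 in GAS5, and 0.28 and −0.36 in siYAP. ALDH18A1 and PYCR1, which make proline, stood apart from the serine enzymes with 0.19 and −0.02 in GAS5, and 0.15 and 0.26 in siYAP. CTH, which makes cysteine, had 516, 406 and 506 counts (−0.23 and 0.06). CBS, the enzyme before CTH, was below the minimum with 1.75, 9 and 2.5 counts, and it is uncertain because reads of its near-identical copy CBSL cannot be separated from it with confidence. The exons of MTHFD2, SHMT2 and PYCR1 overlap those of other listed genes, over 27.2%, 0.682% and 14.1% of their bases, with the overlap on the same strand only for PYCR1.

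The 4 transporters and the 5 synthetases were all below 0 in GAS5, where 50.1% of all symbols were. None was called by the sum over all transcripts. SLC38A2, which imports small neutral amino acids with sodium, had mean counts of 32552 in NC, 21066.5 in GAS5 and 28328.5 in siYAP (−0.51 and −0.12). SLC7A1, the importer of arginine and lysine, had 11296.5, 7251 and 10726 (−0.52 and 0.01), and it was called lower in GAS5 when only Ensembl transcripts were summed. That call leaves out an assembled transcript without an Ensembl identifier, which held 83.6% of the SLC7A1 counts in NC. The subunits of the leucine importer were nearer to NC, SLC7A5 with 43868, 33864 and 50109 counts (−0.26 and 0.28) and SLC3A2, its heavy chain, with 9297, 8321 and 10315 (−0.04 and 0.24). The median of the 4 transporters was −0.38 in GAS5 and 0.12 in siYAP. The 5 aminoacyl-tRNA synthetases, which attach amino acids to their tRNAs, ranged in GAS5 from −0.38 for GARS (glycine), −0.36 for AARS (alanine), −0.30 for SARS (serine) and −0.20 for MARS (methionine) to −0.13 for EPRS (glutamate and proline). GARS had mean counts of 14013.5 in NC, 9897 in GAS5 and 13599 in siYAP. Of the 5, 4 lay between 0.04 and 0.15 with YAP knockdown, and EPRS, with 11328 counts in NC and 8436.5 in siYAP, had −0.34. STC2, a secreted glycoprotein induced by ER and nutrient stress (chr5:173314713-173329503, minus strand), was called lower in GAS5 with 2779.5 (NC), 1677.5 (GAS5) and 2132 (siYAP) counts (−0.61 and −0.30), and its interval in GAS5, −0.67 to −0.55, spans the limit. VLDLR, a lipoprotein receptor, was at 0 counts in every group.

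The sensors of ER stress showed no call. EIF2AK3, which encodes PERK, had mean counts of 710 in NC, 627.5 in GAS5 and 675 in siYAP, with log2 fold changes of −0.06 (−0.17 to 0.05) and 0.01 (−0.10 to 0.12), and the interval of each includes 0. The EIF2AK3 values depended on which transcripts were summed: with only the transcripts that carry an Ensembl identifier they were −0.26 and 0.28, and with the most abundant transcript alone, one assembled from the reads, 0.28 and −0.75. ERN1, which encodes IRE1, had 1153.5, 859 and 1287 counts (−0.31 and 0.24). ATF6 had 3112, 2333 and 2751 (−0.30 and −0.09), and its values also depended on the choice, with −0.57 in GAS5 from Ensembl transcripts alone, −0.13 from the most abundant transcript, and −0.15 in siYAP by FPKM. The most abundant ATF6 transcript was also one assembled from the reads, and it held 54.7% of the ATF6 counts in NC. The GAS5 means of ERN1 and ATF6 were the lowest of the 3 groups.

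XBP1 (chr22:28794555-28800597, minus strand) had mean counts of 3338 in NC, 3283.5 in GAS5 and 3547.5 in siYAP, and its log2 fold changes of 0.09 (0.05 to 0.14) and 0.17 (0.12 to 0.22) were both small. The GAS5 value was 0.04 by FPKM or with the most abundant transcript. Its transcripts can be divided by the segment that IRE1 removes. In transcript ENST00000611155 the 26 bases at chr22:28796124-28796149 are absent, printed here in capitals with the flanking bases that the spliced mRNA joins.
XBP1 segment removed by IRE1, in the mRNA's direction: agCACTCAGACTACGTGCACCTCTGCAGca
ENST00000344347 lacks a segment of the same length that gives the same joined sequence, and the other 3 listed transcripts keep it. The spliced transcripts together had mean counts of 640 in NC, 846 in GAS5 and 901 in siYAP, and the unspliced ones 2698, 2438 and 2646. The spliced form as a share of XBP1 counts was thus 19.2% for NC (18.2 to 20.1), 25.8% in GAS5 (24.7 to 26.8) and 25.4% in siYAP (24.4 to 26.4). With both spliced transcripts summed, the GAS5 and siYAP shares lay above NC by more than counting error and within counting error of each other. Within the spliced pair, ENST00000611155 had 489, 786 and 738 counts and ENST00000344347 had 151, 59.6 and 163. Among the unspliced ones, ENST00000216037 had 2543, 2403 and 2616, and ENST00000405219 had 137, 21.1 and 7.53. Only fragments that cross the site tell the forms apart, the remaining counts were divided by the authors' estimate, and the spread between libraries is unknown, so the error of these shares is wider than the intervals. By FPKM in place of counts the shares were 21.7%, 27.1% and 28.0%. For ENST00000611155 alone they were 14.7%, 23.9% and 20.8%, so the closeness of GAS5 and siYAP depended on the sum.

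**Figure D3:**
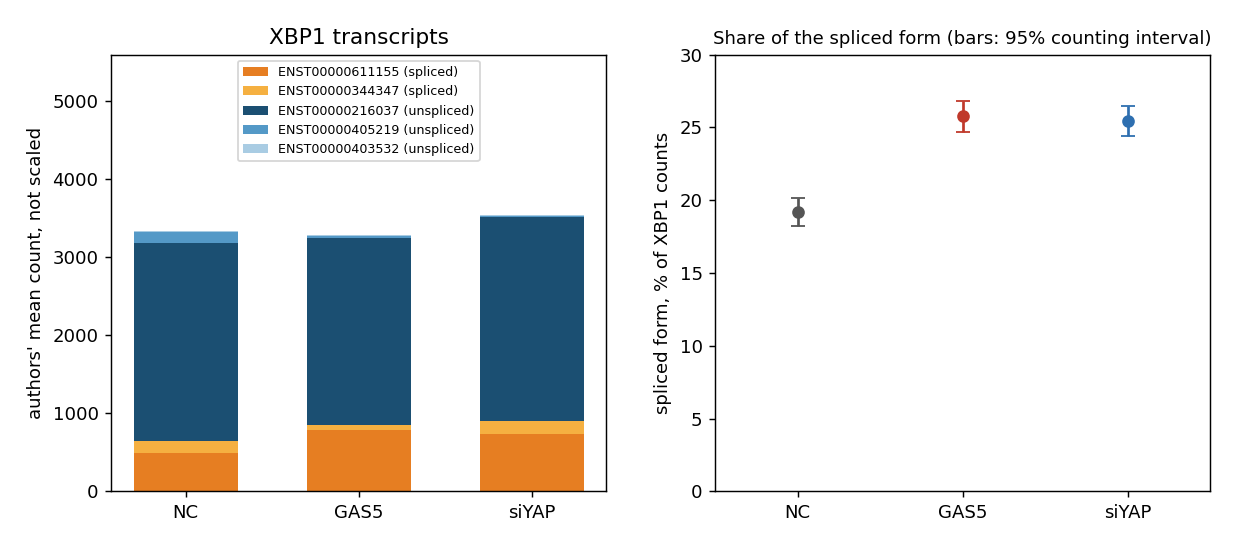
Left, mean counts of the 5 XBP1 transcripts in NC, GAS5 and siYAP, stacked, with spliced forms in orange and unspliced forms in blue; right, the spliced share in percent of all XBP1 counts with its 95% counting interval. The share is 19.2% in NC and lies above 25% in both treated groups.

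Of the 6 ER folding proteins, 5 were above 0 in GAS5, with a median of 0.25, and 3 in siYAP, with a median of −0.02. Among all symbols, 50.1% were below 0 in GAS5 and 50.6% in siYAP. SDF2L1, a partner of ER chaperones (chr22:21642261-21644298, plus strand), had mean counts of 338.5 in NC, 470 in GAS5 and 355.5 in siYAP, and it was the only gene of the set called higher, at 0.59 (0.45 to 0.74) in GAS5. That interval spans the limit for a call, and with scaling by total counts or by FPKM SDF2L1 was not called. MANF, a secreted protein that protects against ER stress, had 1147.5, 1474.5 and 1215.5 counts (0.48 and 0.17), and CRELD2, another ER stress-induced protein, 584, 676 and 580 (0.33 and 0.07). CALR, the calcium-binding lectin chaperone calreticulin, had 29715 in NC, 30817 in GAS5 and 25248 in siYAP, with 0.17 (0.15 to 0.19) and −0.15. The disulfide isomerases PDIA4 and PDIA6 had 0.14 and −0.04 in GAS5, and −0.27 and −0.12 in siYAP. Of the bases in exons, 25.2% in PDIA6 and 3.25% in CRELD2 overlap a gene on the other strand.

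The genes of ER-associated degradation were all below 0 in GAS5, where 50.1% of all symbols were, without a call by counts. HERPUD1, which assembles the complex that passes proteins out of the ER, had mean counts of 2738 in NC, 2200 in GAS5 and 2933 in siYAP, with log2 fold changes of −0.20 (−0.25 to −0.14) and 0.18, the latter 0.07 with the most abundant transcript. SEL1L, the adaptor of that complex, had 2410, 1657 and 2103 (−0.42 and −0.11), and by FPKM, with 19.7 in NC and 12.1 in GAS5, it was called lower in GAS5. EDEM1, which recognises misfolded glycoproteins, had 535.5, 432.5 and 484 (−0.19 and −0.06). These 3 genes together took 0.0209%, 0.0168% and 0.0210% of all counts in the order NC, GAS5 and siYAP.

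When the genes are read by the promoter element shown above, the 5 carriers of TGATGCAA had log2 fold changes in GAS5 of −0.81 for CHAC1, −0.51 for CEBPG, −0.36 for AARS, −0.20 for MARS and −0.20 for HERPUD1, all below 0. So were 26 of the 27 amino acid response genes and 33 of the 40 genes compared, carriers or not. Of the genes called lower, only CHAC1 carried TGATGCAA. The looser search added ASNS (−0.63), SLC7A1 (−0.52), GARS (−0.38) and SLC3A2 (−0.04). ALDH18A1, the carrier of TGACGTGG, had 0.19. The part of the elements in these values was not tested. The 4 carriers of the ER stress element had 0.33 for CRELD2, 0.17 for CALR, 0.09 for XBP1 and −0.04 for PDIA6. The second ER stress element was carried by SDF2L1 with 0.59 and by HERPUD1, the gene that holds both kinds of element, with −0.20. In siYAP the same 5 TGATGCAA carriers ranged from −0.29 for CEBPG to 0.18 for HERPUD1.

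Levels were compared between genes in FPKM, which allows for transcript length. In NC the summed level was highest for ATF4 among the transcription factors (591 FPKM), DDIT4 among the effectors (149.9), ASNS among the enzymes (295), SLC38A2 among the transporters (367, next to 361 for SLC7A5), GARS among the synthetases (192), XBP1 among the sensors and their factor (67.5), CALR among the folding proteins (566) and HERPUD1 among the degradation genes (56.0). The lowest levels belonged to EDEM1 (3.43), the kinases ERN1 (5.88) and EIF2AK3 (7.14), CTH (11.1) and CEBPB (12.4). The highest gene of a role was not always the same in the treated groups. SLC7A5 stood above SLC38A2 in both, at 298 against 257 FPKM in GAS5 and at 423 against 327 in siYAP. Among the enzymes PYCR1 stood highest in GAS5, at 243 against 192 for ASNS, and SHMT2 in siYAP, at 330.1 against 245. Among the synthetases AARS, at 198 FPKM, stood just above GARS, at 193, in siYAP. CALR, at 624 FPKM, had the highest level of all 43 genes in GAS5, where ATF4 had 505.

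**Figure D4:**
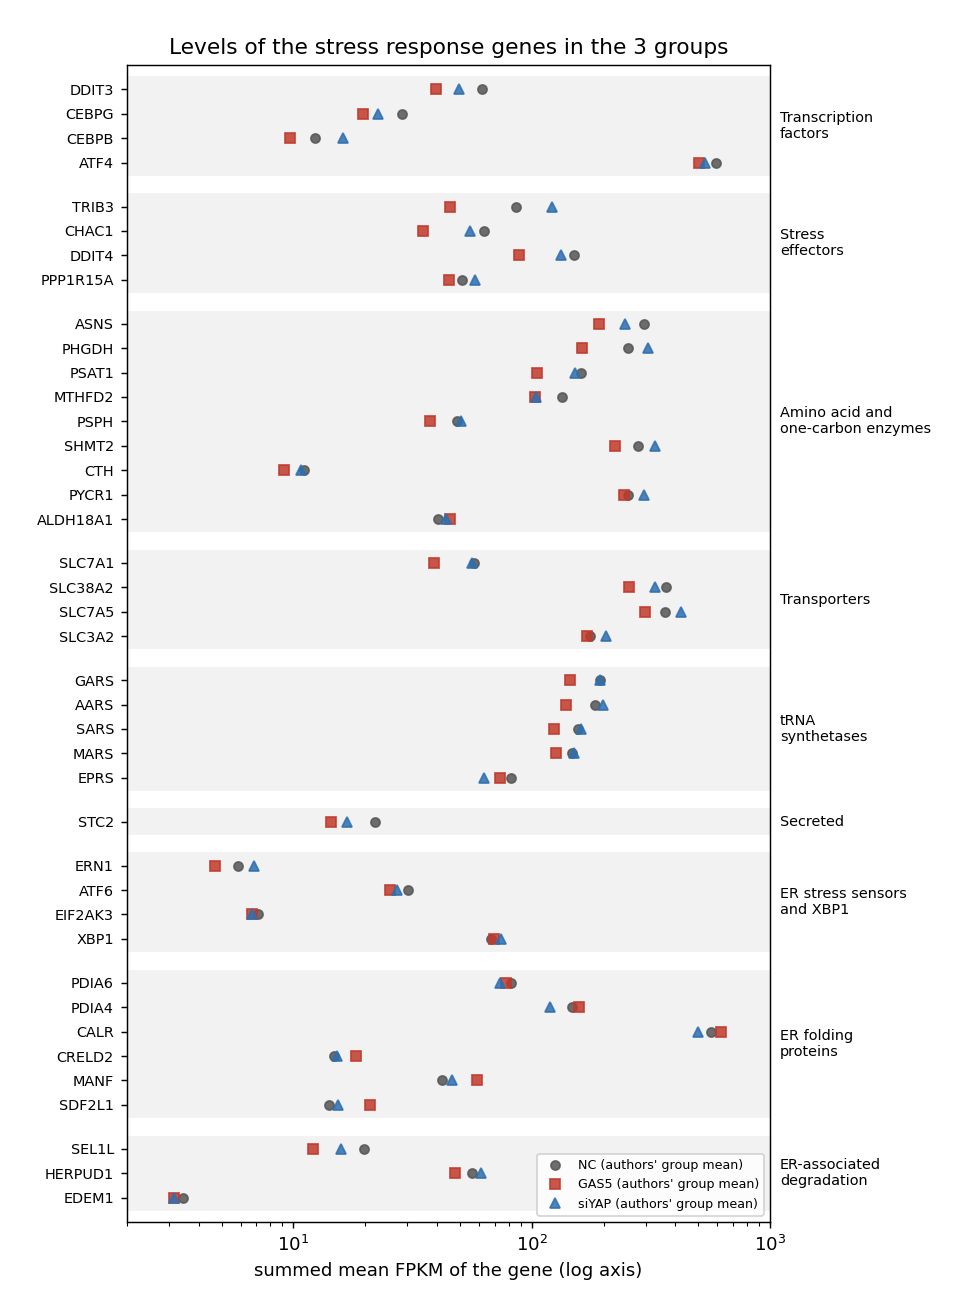
Summed mean FPKM (log axis) of the 40 genes compared in NC (circles), GAS5 (squares) and siYAP (triangles), grouped by role. Levels span from 3.43 FPKM for EDEM1 to 591 for ATF4 in NC, and the GAS5 square is left of the NC circle for 26 of the 27 genes of the upper 6 roles.

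Other genes known from the same pathways were listed beside the 43. Their lists, too, were chosen with earlier results of these data known, so their counts are not an independent check. Of 20 further amino acid response genes compared (21 listed), 5 were called lower in GAS5 and 1 higher, with a median of −0.42 and 17 of 20 below 0, where 2%, 2.52% and 50.1% of all symbols were lower, higher and below 0. The genes called lower were FAM129A, a stress-induced regulator of translation (1861.5 counts in NC and 874 in GAS5, −0.97), the transporters SLC1A4 (neutral amino acids, −0.93), SLC7A11 (cystine, −0.88) and SLC6A9 (glycine, −0.85), and the peptide hormone gene ADM2 (−0.68). ATF3, a stress-induced transcription factor that also answers other signals, was called higher with 830 (NC), 1986 (GAS5) and 732 (siYAP) counts, a log2 fold change of 1.37 (1.29 to 1.46) in GAS5. In siYAP the median of this list was 0.11, with SESN2, a leucine sensor, called higher (0.62) and SHMT1, the cytosolic serine enzyme, called lower (−0.59). FGF21, a hormone induced by ATF4, was below the minimum with 24.5, 6 and 50.5 counts. The 15 other cytosolic synthetases had medians of −0.10 and −0.07 with no call in either group. Among all symbols, 4.33% were called lower and 2.85% higher in siYAP.

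**Figure D5:**
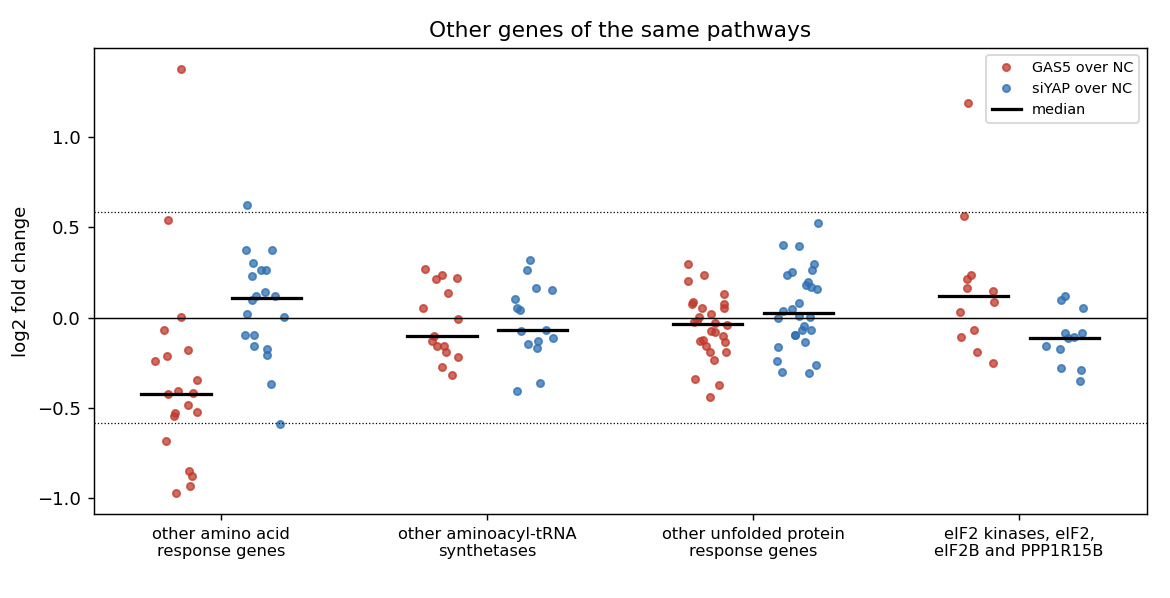
Log2 fold changes over NC (vertical axis) of further genes of the pathways in GAS5 (red) and siYAP (blue); each point is a gene, bars are medians and dotted lines mark 1.5-fold. In GAS5 the median of the other amino acid response genes is −0.42, with ATF3 at 1.37, and the other unfolded protein response genes lie between the dotted lines.

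Of 28 further unfolded protein response genes compared (29 listed), none was called in either group, with medians of −0.04 in GAS5 and 0.02 in siYAP. Calls were rare among all symbols too, 2% lower and 2.52% higher in GAS5, and 4.33% and 2.85% in siYAP. HSPA5, which encodes the chaperone BiP, the usual readout of ER stress, had mean counts of 26958.5 in NC, 23498.5 in GAS5 and 25355 in siYAP, with log2 fold changes of −0.08 (−0.10 to −0.06) and −0.00. HSP90B1, the ER member of the HSP90 family, had 0.01 and −0.30, and DNAJB9, a chaperone gene induced by spliced XBP1, 0.13 and 0.52, the highest of this list in siYAP. Among 12 genes of the eIF2 kinases, eIF2, its exchange factor and PPP1R15B, a phosphatase subunit that acts on eIF2, the median was 0.12 in GAS5 and −0.11 in siYAP. The single call there was EIF2AK2, which encodes PKR, an interferon-stimulated kinase activated by double-stranded RNA, with 2780 (NC), 5835 (GAS5) and 2144.5 (siYAP) counts, a log2 fold change of 1.19 (1.14 to 1.23) in GAS5. Its part in the values of the other genes was not tested. EIF2AK4, which encodes GCN2, had 0.03 and −0.11.

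The pathway annotation in the deposited tables gave wider sets in which the members sit. Over all symbols compared, 2% were called lower and 2.52% higher in GAS5, and 4.33% lower and 2.85% higher in siYAP. Of 151 compared genes annotated to protein processing in the endoplasmic reticulum, 13 are genes described here. In this set 2 genes were called lower and 6 higher in GAS5, with a median of 0.02 on the log2 scale, and 1 lower and 2 higher in siYAP, with a median of −0.06. Of 26 genes annotated to glycine, serine and threonine metabolism, 5 are described here. Of the 26, PHGDH was the only gene called lower in GAS5 and none was higher, with a median of −0.07. In siYAP 2 of the 26 were lower and 1 higher, with a median of 0.07. Of 44 genes annotated to aminoacyl-tRNA biosynthesis, 5 are described here. Of the 44, none was called lower and 1, not among those described here, was called higher in GAS5, with a median of −0.01. None of the 44 was called in siYAP, with a median of −0.07. Of 32 genes annotated to biosynthesis of amino acids, 4 are described here. PHGDH was called lower and 1 other gene higher in GAS5, with a median of 0.05, and 1 was lower and 2 were higher in siYAP, with a median of 0.11.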

How the data were processed

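The authors sequenced total RNA of HCT116 cells as strand-specific libraries. The submitters' processing notes name TopHat2 2.1.1, while the counting tool, genome build and annotation are not given in the sources used here. The deposited expected counts are estimated counts per mRNA transcript, given by the authors as the mean of each group's 2 libraries, with no other scaling. The deposited FPKM values are scaled by transcript length and library size and averaged in the same way. The deposited columns with the authors' log2 fold change, p-value and FDR hold their own comparisons and were not used. The 2 tables, 1 per treatment, list 92866 transcripts and were joined by identifier. Symbols were read from the siYAP table because 212 differ in the GAS5 table. The 339 transcripts without a symbol held 0.195% to 0.224% of the counts and were left out of sums and library sizes.

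Counts were summed by symbol. TMM factors (edgeR 4.0.16, R 4.3.3) were computed on each pair of group means, and a prior count of 2 entered the log2 fold changes. Symbols with a mean of the 3 sums of at least 50 were compared, and 1.5-fold was called. Since there is 1 mean per group, no test was run. Exact Clopper-Pearson intervals (95%) on the summed reads of 2 libraries cover counting error only, and depth was 25521577 to 27206123 mean counts per group. Other sums used Python 3.11.15. Positions are from GENCODE 29 (GRCh38), where all 191 Ensembl transcripts of the 43 genes were found. The named genes are those past 1.5-fold, the regulators ATF4, DDIT3, XBP1, ATF6, ERN1 and EIF2AK3, the response genes ASNS, TRIB3, CHAC1, HERPUD1 and PPP1R15A, the highest gene of each role, and every other member with its values. The members, roles and lists were chosen with earlier results of these data known. In the lists, 4 older symbols were replaced by current ones. The fold change step was tested on simulated data with changes of 2-fold or more, which does not cover true changes between 1.5-fold and 2-fold. The alternatives were DESeq2 1.42.0 size factors, total counts, FPKM, another prior count, other minimums, a 2-fold limit, the most abundant transcript, and Ensembl transcripts alone.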

Additional observations from a re-analysis of the deposited data

How the results depend on the processing

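No paired analysis was possible because a single mean stands for each group, and leaving out a library could not be run for the same reason. NUPR1, CBS and VLDLR were below the minimum and have no fold change. A count was taken as close within 1.5 times. A fold change was close if it moved by no more than the distance from the centre of its counting interval to an end. For a median the limit was the median of that distance over the genes, and a share had to stay inside its counting interval. Of 61 alternative values of counts, medians and shares, 45 stayed close to the values given and 16 moved, and of 270 values of single genes 236 stayed close and 34 moved. The other minimums and the 2-fold limit cannot change the fold change of a single gene. The values under them are among the 270 and stayed close by construction, so these counts overstate how stable the genes were. The same holds for some of the 61. The 2-fold limit cannot change a median, and with no call in siYAP at 1.5-fold there can be none at 2-fold. The minimum on the NC sum alone kept the same genes, so its values repeated the main ones. The 45 therefore overstate stability too. The 7 genes called lower in GAS5 were also called with either other scaling, with FPKM, with the smaller prior count, with either other minimum and by either other choice of transcripts, 7 to 9 genes in each (with PSAT1, SEL1L, SLC7A1 or NUPR1 added in some), and at 2-fold there were 0. The number called higher in GAS5 was 0 with total counts, with FPKM and at 2-fold, and 2 without a minimum, when CBS joined SDF2L1. The median in GAS5 was −0.23 with the most abundant transcript, and in siYAP it was −0.011 by FPKM. In siYAP 1 gene was called lower with the most abundant transcript (EIF2AK3) and 1 with Ensembl transcripts alone (CEBPG). The spliced share of XBP1 by FPKM was 21.7% (NC), 27.1% (GAS5) and 28.0% (siYAP), and 14.7%, 23.9% and 20.8% for the longer spliced transcript alone, both added after the data were seen. The composite element was found in 9 genes with 1 base free. The cause of these shifts was not tested.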
